A study of Brassica rapa with 12 samples.

Results

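The 10 genes described here are the Brassica rapa copies assigned to 3 steps of aliphatic glucosinolate synthesis, and they were taken by identifier from the 41020 genes of the count table. They comprise 7 copies of MAM, 1 copy of CYP79F1 and 2 copies of CYP83A1. The deposited tables list identifiers without gene names, and none of the 10 identifiers was found in the gene table used, so the enzyme names follow the list by which the genes were chosen and were not checked against an annotation. Messenger RNA was profiled in plants of 8 weeks, from stems and from buds, of wild type and of transgenic BrCHR39-silenced lines; the series presents BrCHR39 as a chromatin remodelling ATPase that favours apical dominance. Each genotype and tissue had 3 libraries, which makes 4 groups: stems of wild type, stems of silenced plants, and the buds of both. The labels do not say how BrCHR39 was silenced, how many lines were sampled or whether plants were pooled. The labels do not say what kind of bud was taken.

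Aliphatic glucosinolates are sulfur-rich defence compounds that cabbage relatives make from methionine. Methylthioalkylmalate synthase (MAM) works in the chloroplast and lengthens the side chain of methionine, CYP79F1 turns the lengthened amino acid into an aldoxime, and CYP83A1 oxidises the aldoxime to the reactive form that receives the sulfur. When tissue is wounded, myrosinase breaks the finished glucosinolates down to pungent, toxic products such as isothiocyanates. In Arabidopsis, loss of CYP79F1 is also known for a bushy shoot with many side branches.

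Gene-assigned reads numbered 12275190 in the shallowest library and 15693349 in the deepest. Libraries of the same group differed by a chi-square of 1.55 to 1.69 per gene, where counting alone gives a value of 1, and no library stood apart from its group. Neither the genotype labels nor the tissue labels could be checked on marker genes, because identifiers of BrCHR39 and of such markers are not named in the files. The labels do not tie the replicates to separate plants. The p-values therefore rest on a spread that may be purely technical. Levels are given as FPKM (read counts divided by coding length and by library total, as the authors deposited them), and changes as log2 fold changes with a standard error (SE) from edgeR's quasi-likelihood test on the raw counts. A gene was called when its Benjamini-Hochberg adjusted p over all 28114 tested genes was under 0.05.

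All 3 steps were strongly expressed in wild type stems. In the stems of silenced plants MAM and CYP79F1 were nearly silent, and CYP83A1 kept a low level of 3.99 to 4.90 FPKM. Transcripts of CYP79F1, of both CYP83A1 copies and of the MAM copy Bra029355 fell in silenced stems to below 1% of their wild type level. All 4 also fell in silenced buds, but by less. In wild type buds the main MAM transcript came from another copy, Bra013009, and that copy was almost lost in silenced buds. In bulk tissue, fewer cells of a type and less RNA per cell cannot be told apart.

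**Figure D1:**
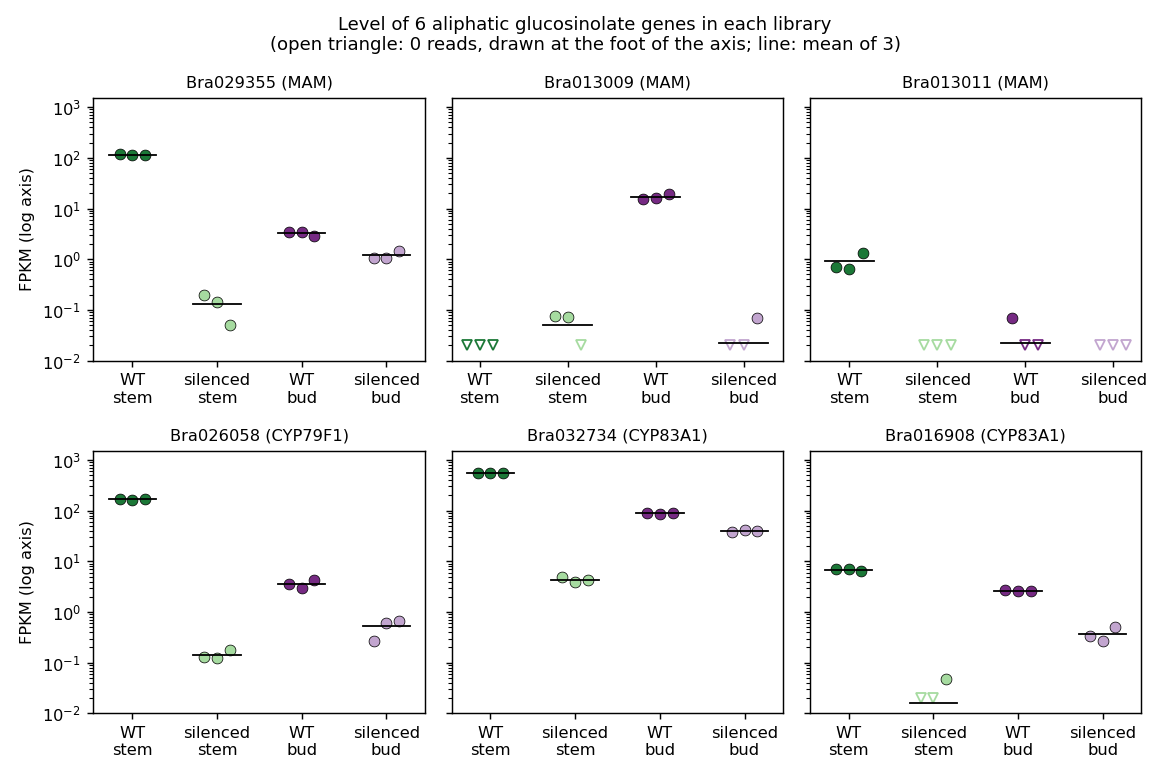
FPKM of the 6 copies with enough reads to be tested, on a log axis, with 1 point per library, a line at the mean of 3 libraries and open triangles for libraries with 0 reads. Bra029355, Bra026058, Bra032734 and Bra016908 share the order wild type stem, wild type bud, silenced bud, silenced stem, while Bra013009 is high in wild type buds and Bra013011 is seen almost solely in wild type stems.

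Of the 7 MAM copies, 3 carried enough reads to be tested. Bra018524 and Bra021947 had 0 reads in all 12 libraries. Bra029356 had 4 reads over all libraries and Bra013007 had 18, too few to pass the filter on low counts. The copies also differ in the length of their gene models. Bra029355 has a coding length of 1443 bases, Bra013011 of 1197, Bra029356 of 1047 and Bra013009 of 942. Bra013007 is listed with 5832 bases, 4.04 times the length of Bra029355 and longer than 99.7% of the genes with reads. Whether this model holds a single MAM gene was not tested, so its reads may not all stand for MAM. Reads shared between near-identical copies could have been split or lost in the authors' counting, so the level of any single MAM copy is uncertain to that extent.

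Bra029355 was the MAM copy of the stem. It stood at 121, 112 and 114 FPKM in the 3 wild type stem libraries and at 0.198, 0.142 and 0.0496 FPKM in the silenced ones. The ranges were far apart, and silenced stems held 8 reads in all against 7477 for the wild type. By summed reads over library totals, 0.113% of the wild type level was left (95% exact counting interval 0.0486% to 0.222%). The log2 fold change was -9.73 (SE 0.13, adjusted p = 4.99e-122, edgeR, 3 libraries against 3). Of the 28114 tested genes, 52 had a more negative fitted change in stem.

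In buds Bra029355 had a low level in both genotypes. It stood at 3.44, 3.52 and 2.91 FPKM in wild type buds and at 1.06, 1.07 and 1.42 FPKM in silenced buds. The ranges did not overlap, and the log2 fold change was -1.52 (SE 0.19, adjusted p = 2.56e-13, edgeR). A change this negative or more was not rare in buds, where 17.4% of the tested genes had a more negative fitted value.

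Bra013009 was the MAM copy of the wild type bud. It stood at 15.5, 15.9 and 19.1 FPKM in wild type buds, from 179, 225 and 282 reads. In silenced buds it had 0, 0 and 1 read, which is 0.142% of the wild type level (95% exact counting interval 0.00358% to 0.792%), and the fall was called (adjusted p = 5.78e-53, edgeR). Without silenced bud replicate 3, which held that read, silenced buds had 0 reads. Bra013009 thus fell in silenced buds to a small fraction, while Bra029355 kept 36.4% of its wild type bud level in the same libraries (95% exact counting interval 27.6% to 47.6%). Bra013009 entered the test through wild type buds alone, which set the direction of its call. The contrast between the copies therefore only describes them.

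Stems carried hardly any Bra013009. It had 0 reads in the 3 wild type stem libraries. With 0 reads set to 3 over the group, wild type buds were 238.5-fold higher by summed reads over library totals. With the 0 reads kept, the exact counting interval of this ratio began at 193.5-fold. Bra013009 had 1, 1 and 0 reads in silenced stems, and the difference from wild type stems was not called (adjusted p = 0.149, edgeR). This gene passed the filter on low counts through wild type buds alone.

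Bra013011 was a weak MAM transcript of wild type stems. It had 13, 12 and 23 reads there, which is 0.717, 0.655 and 1.34 FPKM. Silenced stems had 0 reads, and the fall was called (adjusted p = 4.29e-09, edgeR). With 0 reads set to 3 over the group, silenced stems were 15.2-fold lower by summed reads over library totals. With the 0 reads kept, the exact counting interval of this ratio began at 11.9-fold. In buds Bra013011 had 1 read in 1 wild type library and none in the other 5, so no change could be seen there at this depth (adjusted p = 0.339). It passed the filter on low counts through wild type stems alone, where its level had to be higher than in a group at 0.

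The MAM transcript pool therefore had a different leading copy in the stem and bud of wild type plants. Bra029355 held 98.8% to 99.4% of the summed MAM FPKM in wild type stems. In wild type buds it held 13.2% to 18.1%, and Bra013009 held 81.4% to 86.2%. In silenced buds Bra029355 held 94.7% to 100% of what was left. The shares in wild type and silenced buds did not overlap for either copy. In silenced stems the whole family had 6, 4 and 1 reads, so its shares there say little.

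Summed over the 7 copies, MAM FPKM in stems was 117 ± 5.02 (SD, n = 3) for the wild type and 0.202 ± 0.147 for silenced plants. In buds the sum was 20.2 ± 1.68 for the wild type and 1.22 ± 0.245 for silenced plants. The fall of the sum in buds was thus larger than the fall of Bra029355 alone, since Bra013009 had made up most of the wild type sum.

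**Figure D2:**
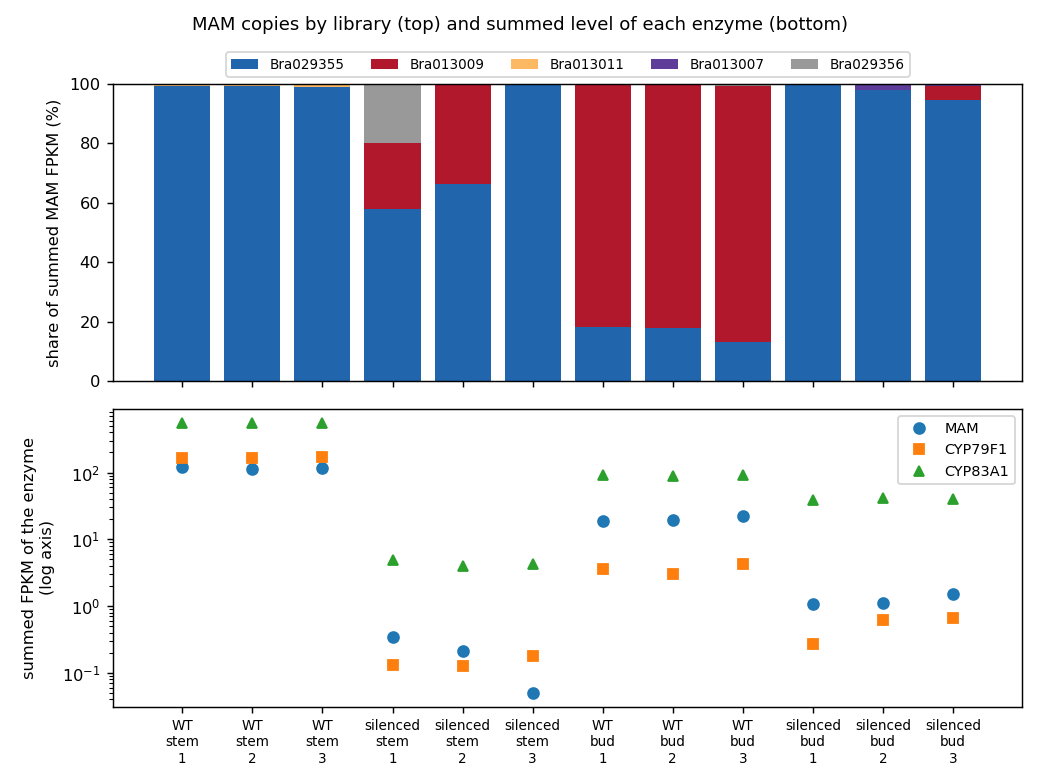
Top, share of the summed MAM FPKM held by each copy in each of the 12 libraries, in percent; bottom, summed FPKM of MAM, CYP79F1 and CYP83A1 in the same libraries, on a log axis. Bra029355 fills almost the whole bar in wild type stems and silenced buds and Bra013009 most of it in wild type buds; the silenced stem bars rest on 6, 4 and 1 reads.

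CYP79F1 has a single copy in this list, Bra026058, with a coding length of 1623 bases. It was among the more abundant transcripts of wild type stems, at 167, 163 and 172 FPKM, and its mean ranked 1057th of 31065 genes with reads. In silenced stems it stood at 0.132, 0.126 and 0.176 FPKM, from 3, 3 and 4 reads, and ranked 27264th of 30375. The groups were far apart in every library. Silenced stems kept 0.0866% of the wild type level (95% exact counting interval 0.0415% to 0.159%). The log2 fold change was -10.11 (SE 0.10, adjusted p = 8.21e-137, edgeR), and 37 of the 28114 tested genes had a more negative one.

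CYP79F1 was already low in wild type buds and fell further in silenced buds. It stood at 3.61, 3.04 and 4.20 FPKM in wild type buds and at 0.270, 0.620 and 0.671 FPKM in silenced buds, from 6, 15 and 17 reads. The ranges did not overlap. The log2 fold change was -2.83 (SE 0.20, adjusted p = 4.31e-28, edgeR). By summed reads over library totals, 14.6% of the wild type level was left (95% exact counting interval 10.1% to 20.6%).

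CYP83A1 was carried almost wholly by Bra032734, the most abundant of the 10 genes. Its models are alike in length, 1506 bases for Bra032734 and 1509 for Bra016908. Bra032734 stood at 550.5, 542 and 543 FPKM in wild type stems, where its mean ranked 281st of 31065 genes. In silenced stems it stood at 4.90, 3.99 and 4.23 FPKM and ranked 17257th of 30375. The log2 fold change was -6.95 (SE 0.05, adjusted p = 9.28e-165, edgeR). Silenced stems kept 0.800% of the wild type level (95% exact counting interval 0.709% to 0.900%), so Bra032734 was, with 280 reads over the silenced stem libraries, the only one of the 10 genes with more than 10 reads in that group.

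In buds Bra032734 remained well expressed in both genotypes. It stood at 89.6, 85.8 and 90.3 FPKM in wild type buds and at 37.8, 41.5 and 39.9 FPKM in silenced buds. The ranges did not overlap, and the log2 fold change was -1.22 (SE 0.04, adjusted p = 1.67e-69, edgeR). Fitted changes more negative than this were found for 21.0% of the tested genes in bud.

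The lesser CYP83A1 copy, Bra016908, fell along with it. It stood at 6.95, 7.10 and 6.47 FPKM in wild type stems and had 0, 0 and 1 read in silenced stems, which is 0.227% of the wild type level (95% exact counting interval 0.00574% to 1.27%; adjusted p = 7.33e-44, edgeR). Without silenced stem replicate 3, which held that read, silenced stems had 0 reads. In wild type buds it stood at 2.70, 2.61 and 2.58 FPKM, and in silenced buds at 0.338, 0.267 and 0.510 FPKM. The log2 fold change in bud was -2.86 (SE 0.29, adjusted p = 6.34e-18, edgeR).

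Within CYP83A1 the share of Bra016908 was small everywhere and differed between groups. It held 1.18% to 1.29% of the summed CYP83A1 FPKM in wild type stems and 2.77% to 2.95% in wild type buds. In silenced buds it held 0.638% to 1.26%. The ranges of wild type and silenced buds did not overlap, so the lesser copy took a smaller share of the remaining transcript in silenced buds. No test is given for the shares.

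Taking the 10 genes as a list, 6 passed the filter on low counts and 4 did not. Of the 6, 5 were called lower and 0 higher in silenced stems, all by at least 2-fold; over all tested genes 32.1% were called lower in stem, 14.3% at least 2-fold lower and 37.6% higher. The 5 include Bra013011, which entered the test through wild type stems alone and so had to be lower in silenced stems; its call is no evidence on the list. In silenced buds 5 were called lower and 0 higher, again all by at least 2-fold, against 41.3% of all tested genes called lower, 23.8% at least 2-fold lower and 38.5% higher. Here the 5 include Bra013009, which entered through wild type buds alone and whose call is likewise no evidence on the list. The copy not called was Bra013009 in stem and Bra013011 in bud, each with 2 reads or fewer in the tissue concerned.

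Bra029355, Bra026058, Bra032734 and Bra016908 had the same order of levels, with wild type stems highest, then wild type buds, silenced buds and silenced stems, and in each of them no neighbouring groups overlapped. The share of all tested genes with this order was not counted, so the order only describes these copies. These 4 genes were called at least 2-fold lower in both silenced tissues, a class of 1056 genes, or 3.76% of those tested.

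The fall was larger in stem than in bud for these 4 copies. The difference of the silencing effects, bud minus stem, was 8.20 on the log2 scale for Bra029355 (SE 0.39, adjusted p = 2.95e-46) and 7.28 for Bra026058 (SE 0.48, adjusted p = 8.88e-32), by edgeR's interaction test over 12 libraries. It was 5.73 for Bra032734 (SE 0.07, adjusted p = 2.09e-125). For Bra016908 it was called as well (adjusted p = 1.59e-09), with a size that rests on 1 read in silenced stems. Bra013009 was called in the opposite direction (adjusted p = 1.66e-05), but its stem side compares 2 reads with 0. It passed the filter on low counts through wild type buds alone, which set this direction. Its call is therefore no evidence on the list. In all, 4 of the 6 tested copies were called with the more positive effect in bud and 1 with the more negative one, against 35.5% and 38.8% of all tested genes.

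Wild type and silenced plants differed in which tissue carried more of these transcripts. In wild type plants 5 of the 6 tested copies were lower in bud than in stem and Bra013009 was higher, against 40.6% of all tested genes called lower and 45.6% called higher. The directions of Bra013009 and Bra013011 were set by the group through which each passed the filter, so these calls only describe them. The log2 fold change from stem to bud was -5.89 for CYP79F1 (SE 0.06, adjusted p = 4.46e-137), -5.50 for Bra029355 (SE 0.07, adjusted p = 2.27e-121) and -2.99 for Bra032734 (SE 0.03, adjusted p = 7.47e-143), by edgeR. Bra016908 had the smallest drop, -1.75 (SE 0.16, adjusted p = 1.23e-19).

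In silenced plants the same 4 copies were higher in bud than in stem, while Bra013009 and Bra013011 were not called; 43.6% of all tested genes were called higher. Bra032734 was 9.12-fold higher by summed reads over library totals (95% exact counting interval 8.06 to 10.4) and had a log2 fold change of 2.74 (SE 0.07, adjusted p = 7.2e-80, edgeR). The fitted change is the smaller, since the fit does not scale by library totals alone. Library totals alone shifted the median of all genes by 0.45 on the log2 scale in this comparison. The counting interval leaves out this choice of scaling. Bra029355 had a log2 fold change of 2.70 (SE 0.42, adjusted p = 2.26e-09) and Bra026058 one of 1.40 (SE 0.46, adjusted p = 0.00373), with 8 and 10 reads in silenced stems. Bra016908 was called too (adjusted p = 6.56e-05), on 25 reads against 1. The tissue comparisons use the same libraries as the silencing comparisons and add no independent evidence on them.

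The transcript ratio of the enzymes differed between groups in different ways. CYP83A1 exceeded MAM by 4.57, 4.90 and 4.76 times in wild type stems, as sums of FPKM. In wild type buds it did so by 4.85, 4.54 and 4.20 times. These ranges overlapped although a different MAM copy led in each tissue. The overlap depends on division by coding length, 942 bases for Bra013009 against 1443 for Bra029355. Raw reads of CYP83A1 and MAM were 12719 and 2670, 12674 and 2481, and 11869 and 2384 in wild type stems. In wild type buds they were 1706 and 243, 1994 and 303, and 2196 and 352. By raw reads the ratio was higher in every wild type bud library than in any wild type stem library. In silenced buds the ratio of summed FPKM was 36.0, 38.3 and 26.9. In silenced stems it was 14.3, 18.6 and 86.2, where MAM had 6, 4 and 1 reads.

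CYP79F1 was the enzyme with the lowest sum in buds. CYP83A1 exceeded CYP79F1 by 3.34, 3.38 and 3.20 times in wild type stems and by 25.5, 29.0 and 22.1 times in wild type buds. In silenced buds it did so by 142, 67.4 and 60.2 times, and in silenced stems by 37.0, 31.6 and 24.2 times. The ratio was lower in every wild type stem library than in any library of the other groups.

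**Figure D3:**
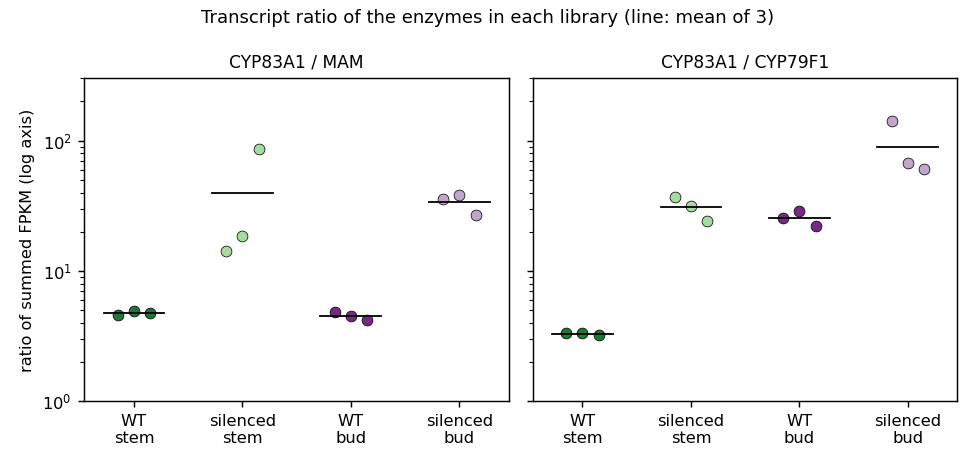
Ratio of the summed FPKM of CYP83A1 to that of MAM (left) and of CYP79F1 (right) in each library, on a log axis, with a line at the mean of 3. The CYP83A1 to MAM ratio lies between 4.20 and 4.90 in all 6 wild type libraries, while the CYP83A1 to CYP79F1 ratio is lowest in wild type stems and highest in silenced buds. By raw reads, without division by coding length, the CYP83A1 to MAM ratio is higher in wild type buds than in wild type stems.

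Bra032734, the gene with the highest mean FPKM of the list, was set beside all other tested genes by the root mean square difference of log2 CPM profiles over the 12 libraries, each centred on its own mean. The nearest genes outside the list were Bra018798, with a difference of 0.435, and Bra005641, with 0.452, where the median over 28113 genes was 2.64. Bra018798 stood at 33.0 ± 2.12 FPKM (SD, n = 3) in wild type stems, 0.283 ± 0.0294 in silenced stems, 7.70 ± 1.17 in wild type buds and, after silencing, 1.64 ± 0.170 in buds. Bra005641 stood at 44.1 ± 0.180, 0.590 ± 0.147, 7.19 ± 0.167 and 3.84 ± 1.12 FPKM in the same groups. Neither identifier is named in the files. Among the listed genes, Bra016908 came 9th in nearness to Bra032734, Bra029355 72nd, Bra013011 405th and Bra026058 480th, while Bra013009 came 26899th.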

How the data were processed

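Stems and buds gave RNA by Trizol and standard Illumina libraries, per the labels' protocols, with no word on strand. The deposited count table holds whole reads per gene. featureCounts 2.0.1, TopHat2, HISAT2 2.1.0 and Bowtie 1.0.1 appear in the submitters' processing notes with no role attached. The genome build is not named there. FPKM values were made by the authors: each equalled count over library total and coding length, which came out whole (relative tolerance 1e-06) in all 35651 genes with reads, always a multiple of 3. Of the 10 genes, 8 are in the FPKM table; the other 2 have no reads.

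All 12 libraries (4 groups of 3, by title) entered edgeR 4.0.16 (R 4.3.3): filterByExpr with a minimum count of 10 (28114 genes kept), TMM scaling, 1 term per group, quasi-likelihood test, Benjamini-Hochberg adjustment over all tested genes, two-sided. The SE is the log2 fold change over the root of F. Ratios of summed reads use library totals, with exact (Clopper-Pearson) 95% intervals for counting error only; 0 reads in a library allow up to 0.191 to 0.244 CPM (3 reads). The scripts were tested on simulated counts. The genes and lists were chosen with earlier results of these data known. Genes named outside the list are the 2 nearest in profile to the most abundant listed gene (log2 CPM, prior count of 2). Other pathway genes and cell type markers were planned by name only, and no name matched. Alternatives were DESeq2 1.42.0, limma 3.58.1 on log2(FPKM + 1) or log2(FPKM + 0.1), other scalings, filters and samples, and the replicate number as a block.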

Additional observations from a re-analysis of the deposited data

Results flagged for a closer look

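Silencing had unequal effects in the bud and the stem, by edgeR's interaction test over 12 libraries, in 5 of the 6 tested copies, 4 with the more positive effect in bud and 1 with the more negative one; over all tested genes 35.5% and 38.8% were called in these directions, so the count itself is not unusual. The difference, bud minus stem on the log2 scale, was 8.20 for the MAM copy Bra029355, 7.28 for the CYP79F1 gene Bra026058 and 5.73 for the CYP83A1 copy Bra032734. In these the fall was larger in stem. It was 5.52 for the CYP83A1 copy Bra016908 and 7.62 without silenced stem replicate 3, which held its only read in that group. For the MAM copy Bra013009 it was -11.88, and -13.47 without silenced bud replicate 3. Its stem side compares 2 reads with 0, so the fitted size is no measure of the difference. Its direction was set by wild type buds, through which alone it passed the filter on low counts.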

How the results depend on the processing

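Across the comparisons, 25 fold changes of single genes were called. Their 539 values under the alternatives all kept the direction and stayed called, but limma on log2(FPKM + 1), which understates changes of low genes, gave smaller sizes: -6.69 in place of -9.73 for Bra029355 in stem, -2.95 in place of -8.38 for Bra016908 in stem and -4.12 in place of -9.00 for Bra013009 in bud. Many of the 539 values come from fits that left out a library outside the groups compared, which could hardly change them. They also include calls of Bra013009 and Bra013011 whose direction the filter on low counts had set. Bra013011 was not tested by limma with the filter on low FPKM, which left 4 calls in stem and 5 between wild type tissues. Of 99 alternative values for the 5 not called, 2 became called, both for Bra013011 in the difference of silencing effects, by DESeq2 (adjusted p = 0.0237) and by limma on log2(FPKM + 1) without a filter (adjusted p = 0.000194), against adjusted p-values of up to 1 elsewhere. Without the count filter a sixth copy was called lower in stem, Bra013007, on 9 reads against 0. With the compared groups fitted alone, silenced bud against silenced stem had 2 calls where the fit of all libraries had 4, because 2 of the genes then passed the count filter. The replicate block gave 5, 5, 5, 6 and 4 called genes for stem, bud, their difference, wild type tissue and silenced tissue, the same as without it. Replicate numbers paired nothing, with correlations of deviations from -0.015 to 0.012; 5 of 12 libraries correlated best with their own number. By raw reads, Bra013009 held 76.0% of MAM in wild type buds, against 83.1% by FPKM. Leaving out the library with a gene's only read moved the fitted log2 change of Bra016908 in stem from -8.38 to -10.47 and in silenced bud against silenced stem from 3.77 to 5.86, of Bra013009 in bud from -9.00 to -10.64, and of Bra013011 in wild type bud against stem from -5.41 to -7.19. Library totals alone shifted the median of all genes by 0.37 and 0.45 in the wild type and silenced tissue comparisons, and upper-quartile scaling shifted it by 0.11 in the latter; no listed gene turned direction. Silenced stems hold 1 to 10 reads for Bra029355, Bra026058 and Bra016908, which limits how well their residual level is known.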
